A study of Mus musculus with 12 samples.

Results

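The 500 broadest H3K4me3 regions of the control organoids were the merged peak regions with the most base pairs under H3K4me3 peaks in the Ctrl libraries. Overlapping peaks of the 6 H3K4me3 libraries were merged on chromosomes 1 to 19 and X, the bases under the peaks of a library were summed for each region (its covered length in bp), and the 500 regions with the highest mean over the 2 Ctrl libraries were kept out of 24594. Of all regions, 14612 held peaks of both Ctrl libraries and 10140 of all 6. The libraries were made by CUT&Tag, in which an antibody to a histone mark guides a transposase to cut and tag the DNA around it. The cells came from tumour organoids derived from PyMT mice, a breast cancer model driven by the polyoma middle T oncogene, labelled wild type (WT) and also called tumoroids or spheroids. They were collected 3 days after treatment labelled Ctrl, SR2 or THC, with 2 libraries per treatment for H3K4me3 and 2 for H3K27me3. THC is the cannabinoid tetrahydrocannabinol, and the title of the series names the cannabinoid receptor CB2R. The labels give neither the meaning of SR2 nor a dose nor what the Ctrl cultures received. The labels name neither the promoter of the transgene, nor the number of mice behind the organoids, nor whether the replicates were separate cultures, so a p-value measures only the spread between these libraries, which may be technical.

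H3K4me3 is laid down at active promoters by the SET1 and MLL (Kmt2) methyltransferases, which are recruited in part by unmethylated CpG-rich DNA, and it is removed by Kdm5 demethylases. Most marked promoters carry a short domain around the gene start. Some promoters carry a much longer one that extends into the gene body, and such broad domains are known from other tissues at genes of cell identity and at tumour suppressor genes. H3K27me3 is the mark of Polycomb repression, which Kdm6a and Kdm6b remove.

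The promoters of the broadest regions were rich in CpG, the dinucleotide typical of promoters with H3K4me3, and a few were not. The 100 bases before the start are printed 5′ to 3′ from RefSeq (GRCm38.p6, the assembly of mm10), with each CG in capitals, for the 5 broadest regions that hold a single listed start lying at the outer end of its gene, for the region whose listed start at the outer end of its gene has the fewest CpG, and for a region in the middle of the breadth order. In the order printed they lie at chr15:81858327-81858426 (minus strand), chr9:106368532-106368631 (plus), chr17:46032378-46032477 (minus), chr17:62881318-62881417 (minus), chr9:62341243-62341342 (plus), chr7:142373747-142373846 (minus) and chr3:67463908-67464007 (minus).
Tob2: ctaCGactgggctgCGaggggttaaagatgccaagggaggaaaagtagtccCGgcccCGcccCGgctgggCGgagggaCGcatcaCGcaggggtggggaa
Dusp7: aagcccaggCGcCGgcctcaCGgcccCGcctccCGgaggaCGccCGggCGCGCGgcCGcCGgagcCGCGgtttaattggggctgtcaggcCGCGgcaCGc
Vegfa: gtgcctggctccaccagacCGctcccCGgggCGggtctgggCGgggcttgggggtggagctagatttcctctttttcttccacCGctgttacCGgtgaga
Efna5: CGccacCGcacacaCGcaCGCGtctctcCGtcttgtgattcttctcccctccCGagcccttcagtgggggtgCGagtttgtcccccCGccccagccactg
Anp32a: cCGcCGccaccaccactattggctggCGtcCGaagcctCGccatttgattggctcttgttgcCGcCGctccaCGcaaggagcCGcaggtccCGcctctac
Ifitm10: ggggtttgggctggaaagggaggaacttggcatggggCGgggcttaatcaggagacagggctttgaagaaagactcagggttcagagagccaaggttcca
Lxn: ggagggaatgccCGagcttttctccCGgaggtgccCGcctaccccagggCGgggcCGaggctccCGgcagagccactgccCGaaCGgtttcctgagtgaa
The printed stretch held 17 CpG at Dusp7, 10 at Anp32a, 9 at Efna5, 8 at Tob2 and 6 at Vegfa. It held 1 at Ifitm10, a gene of the interferon-induced transmembrane family, and 8 at Lxn, a carboxypeptidase inhibitor gene whose region ranked 7306 with a mean Ctrl covered length of 1070.5 bp. CpG number in this window therefore did not order these promoters by breadth.

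Over all starts the difference in base composition was small. RefSeq listed 518 starts of 421 protein-coding genes inside the 500 regions. In the window from 250 bases before to 50 after the start, their median GC share was 66.3% and their median CpG count 9 per 100 bp. The medians were 67.0% and 9 for the next 500 regions by breadth, 61.7% and 7 for the 500 regions around the median breadth of those with a peak in both Ctrl libraries (the middle regions), and 49.0% and 1.33 for starts in no H3K4me3 region. The broadest regions were thus more CpG-rich than middle regions and similar to the next 500. Only 9 of the 518 starts had under 2 CpG per 100 bp, and they belonged to Ifitm10, Lima1, Car9, Krt14, Myl6, Tcirg1, Lgals7, Lmna and Mtmr11. At 6 of these 9, all but Ifitm10, Car9 and Mtmr11, the listed start lay over 100 bp from the outer end of the gene and is thus an internal start.

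Motif matches were searched on both strands of the same window. The letters GGGCGG, the core of the site of Sp1-family factors, occurred at 76.4% of the starts in the broadest regions, against 80.3% in the next 500, 68.9% in middle regions, 71.1% in all other regions with a peak in both Ctrl libraries and 46.7% of all starts. The share was thus higher in the next 500 than in the broadest. CCGGAAG, the core of the site of ETS-family factors, occurred at 11.6%, against 15.5% in the next 500, 23.3% in middle regions, 20.4% in all other regions with a peak in both Ctrl libraries and 11.7% of all starts. In the broadest regions and in those other marked regions, CCAAT was at 33.0% against 38.4%, TATAAA at 5.79% against 5.61%, CACGTG at 10.2% against 10.6% and TGANTCA, the AP-1 site, at 5.60% against 4.09%. The Sp1, ETS and E-box (CACGTG) letters each hold a CG, and those of the E-box and AP-1 read the same on both strands. A match is a string of letters and not a bound site.

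The libraries differed in peak number and in strength. Replicates 1 and 2, always given here in that order, had 18383 and 16442 H3K4me3 peaks for Ctrl, 14812 and 15189 for SR2, and 11924 and 13227 for THC. The median pileup at a peak summit, recovered from the deposited fold enrichment and p-value, was 62 and 58 reads for Ctrl, 36 and 54 for SR2, and 21 and 44 for THC. THC replicate 1 was thus the weakest library on both measures, and the part of library strength in the covered lengths was not tested. The labelled tissue was checked on the promoters of marker genes: all 15 luminal keratin and adhesion genes were marked in both Ctrl libraries, as were 10 of 13 luminal hormone-sensing genes, 8 of 15 basal genes, 3 of 12 fibroblast genes, 3 of 12 endothelial genes, 4 of 15 blood cell genes and 5 of 10 adipocyte genes. In such bulk samples, fewer cells of a type and less mark per cell cannot be told apart.

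The 500 regions had a median covered length of 2477.5 and 2373.5 bp in the Ctrl libraries, 2163.5 and 2280.5 bp in SR2, and 1476.5 and 2104 bp in THC. The mean of the 2 library medians was 2425.5 ± 73.5 bp for Ctrl, 2222 ± 82.7 bp for SR2 and 1790.25 ± 444 bp for THC (SD, n = 2). The SR2 and THC libraries lay below both Ctrl libraries, and THC replicate 1 lay far below the rest. The regions had been chosen for their length in Ctrl, so these contrasts with Ctrl carry no test. The 10140 regions with a peak in all 6 libraries had medians of 1284 and 1203 bp in Ctrl, 1065 and 1158 bp in SR2, and 803 and 1029 bp in THC, the same order of libraries. The 500 regions made up a larger share of all covered bp in the treated libraries, at 8.04% and 7.79% for SR2 and 8.15% and 8.51% for THC, against 6.91% and 7.63% for Ctrl. This was not particular to them. The next 500 regions had 5.51% and 6.06% for Ctrl, 6.38% and 6.19% for SR2, and 6.97% and 6.74% for THC. The middle regions had 3.00% and 3.17%, 3.33% and 3.31%, and 3.44% and 3.37% in the same order.

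**Figure D1:**
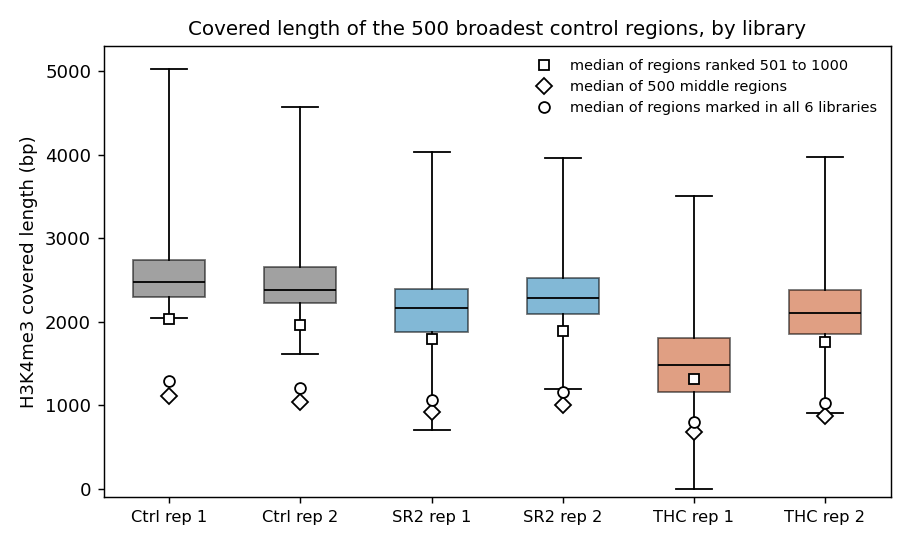
Covered length in bp (vertical axis) of the 500 broadest control regions in the 6 H3K4me3 libraries (horizontal axis), as boxes with the median and quartiles and whiskers from the lowest to the highest region; open symbols give the medians of other regions. The median falls from 2477.5 bp in Ctrl replicate 1 to 1476.5 bp in THC replicate 1, and the open symbols fall in the same libraries.

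The choice of regions added little to the level in a Ctrl library that the choice did not use. Chosen on Ctrl replicate 1 alone, the 500 broadest regions had a median of 2364.5 bp in Ctrl replicate 2, and chosen on Ctrl replicate 2 alone they had 2441 bp in Ctrl replicate 1. Chosen on the THC libraries, they still covered 2279.5 and 2221 bp in Ctrl, against 1717 and 2062.5 bp in the THC libraries that chose them. At the limit, the last regions kept were Meis1 with a mean Ctrl length of 2155 bp, Shf and Rnf126 with 2153 bp each, and Lncpint and Rps10 with 2152 bp each. The first left out were Plk1, Cadm1 and Chst2 with 2150.5 bp each and Dcaf5 and Mettl6/Eaf1 with 2148.5 bp each, so nothing separates the regions at this edge.

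The broadest region, at chr17:34117553-34122994, lay over Brd2, which encodes a bromodomain reader of acetylated histones, and H2-DMa, a chain of the class II peptide-loading complex. It was covered over 5018 and 4566 bp in Ctrl, 4036 and 3780 bp in SR2 and 1437 and 3729 bp in THC. All 4 treated libraries were below both Ctrl libraries. Tob2 (chr15:81856117-81860367), an antiproliferative gene, had 4188 and 4116 bp in Ctrl, 3602 and 3725 bp in SR2 and 2493 and 3711 bp in THC. Dusp7 (chr9:106367352-106371521), a phosphatase of ERK kinases, had 4170 and 4046 bp, 3339 and 3832 bp, and 1418 and 3968 bp in the same order. In both, THC replicate 2 stayed near the SR2 libraries and THC replicate 1 did not. Mxi1 (chr19:53310408-53314406), an antagonist of MYC, had 3999 and 3861 bp in Ctrl, 3464 and 3958 bp in SR2 and 2654 and 3289 bp in THC. Vegfa (chr17:46028714-46032831), the growth factor of blood vessels, had 3654 and 4118 bp in Ctrl, 2493 and 2689 bp in SR2 and 2012 and 2851 bp in THC. At Vegfa the SR2 libraries lay in the range of THC, and all 4 treated libraries were below both Ctrl libraries. Such an order was frequent. Both SR2 libraries were below both Ctrl libraries in 264 of the 500 regions (52.8%), beside 48.5% of regions marked in all 6 libraries. Both THC libraries were below both Ctrl libraries in 433 of the 500 (86.6%), beside 84.3%.

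The rest of the 10 broadest regions lay at Efna5, an ephrin ligand, Dusp4, a nuclear MAP kinase phosphatase, Midn, which carries nuclear proteins to the proteasome, Cdk6, a kinase of the G1 phase, and Anp32a, an acidic nuclear phosphoprotein. Their mean Ctrl lengths were 3676.5, 3669, 3575.5, 3566.5 and 3530 bp. Efna5 hardly differed between Ctrl (3734 and 3619 bp) and SR2 (3689 and 3605 bp) and read 2042 and 3557 bp in THC. Dusp4 had 3732 and 3606 bp in Ctrl, 3688 and 3260 bp in SR2 and 2023 and 3025 bp in THC. In each of these 5 regions THC replicate 1 was the lowest library, as it was in 469 of the 500 regions. The same count was not made for other regions, so 469 is not a trait of the broadest ones. THC replicate 1 also had the lowest median of the 6 libraries in the next 500 regions (1308.5 bp) and in the middle regions (676.5 bp). The longest single peaks in any library were those of Brd2/H2-DMa (5018 bp), Tob2 (4188 bp), Dusp7 (4170 bp), Vegfa (4118 bp) and Mxi1 (3999 bp), all in Ctrl.

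Region 11, at chr17:39843156-39846717, stood apart. It lies over Rn18s-rs5, a ribosomal RNA related sequence, where reads of near-identical copies can fall, so its values are uncertain. Its covered length was 3474 and 3514 bp in Ctrl, 3541 and 3484 bp in SR2 and 3500 and 3537 bp in THC, with no shortening in any library. It was also the only one of the 500 regions under an H3K27me3 peak in all 6 libraries of that mark, over 3526 to 3562 bp of its 3562 bp.

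**Figure D2:**
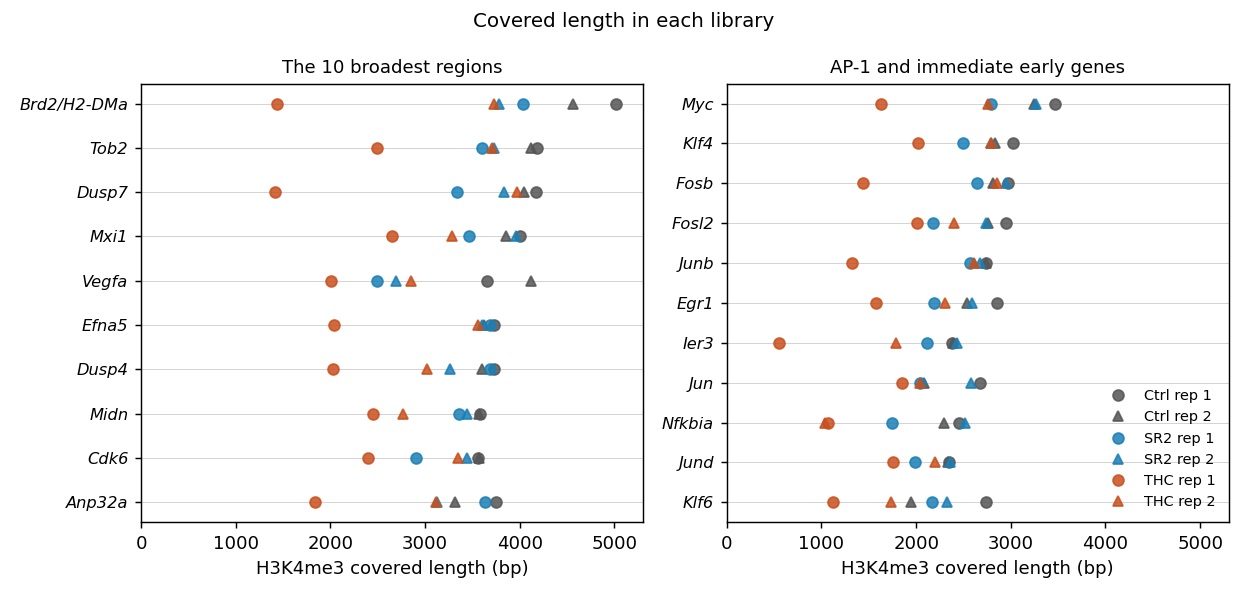
Covered length in bp (horizontal axis) in each of the 6 libraries for the 10 broadest regions (left) and the 11 regions at AP-1 and immediate early genes (right); circles are replicate 1, triangles replicate 2, grey Ctrl, blue SR2 and orange THC. The orange circle, THC replicate 1, is the leftmost point in all 10 rows on the left, and is 1437 bp at Brd2/H2-DMa, where Ctrl reads 5018 and 4566 bp.

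Position around the gene start showed where the extra length lies. Of the 500 regions, 465 (93.0%) had a protein-coding gene within 1 kb, by a listed start or, for genes with no listed start, by either end, against 92.0% of the next 500, 88.8% of the middle 500 and 47.6% of all other regions. In 187 regions with a single RefSeq start, the median covered length was 533 bp upstream and 1923 bp downstream of the start in Ctrl replicate 1, and 490 and 1848 bp in Ctrl replicate 2. The 228 middle regions of this kind had 314 bp upstream and 780.5 bp downstream in Ctrl replicate 1. The 189 such regions of the next 500 had 544 bp upstream and 1467 bp downstream in Ctrl replicate 1. The broadest regions were thus longer mainly on the gene side. The asymmetry itself was shared: 93.0% of the 187 had more covered bp downstream than upstream, as did 88.9% of the 189 and 86.0% of the 228. In the treated libraries the upstream and downstream medians of the 187 were 467 and 1621 bp and 513 and 1762 bp for SR2, and 330 and 1116 bp and 453 and 1573 bp for THC. The listed start was within 100 bp of the outer end of the gene in 121 of the 187 regions, and in those the Ctrl replicate 1 medians were 507 and 1934 bp.

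**Figure D3:**
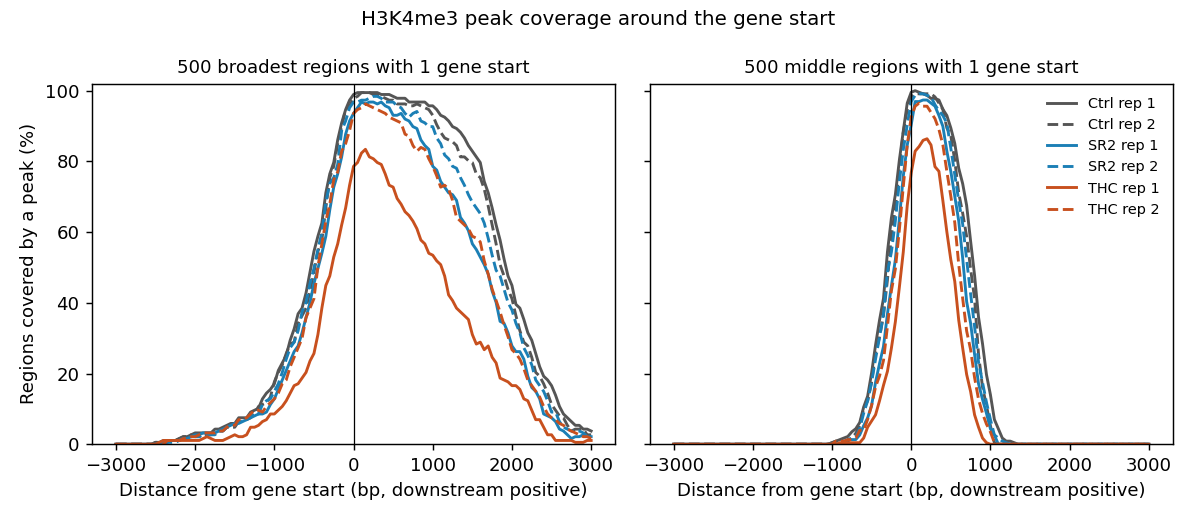
Share of regions covered by a peak (vertical axis, %) against distance from the gene start in bp (horizontal axis, downstream positive), for 187 of the 500 broadest regions (left) and 228 of the 500 middle regions (right) that hold 1 listed start; solid lines are replicate 1 and dashed lines replicate 2. At 1500 bp downstream the share in the broadest regions is 82.9% in Ctrl replicate 1 and 31.0% in THC replicate 1. It is 0 in the middle regions, whose median covered length in Ctrl replicate 1 (1103 bp over all 500) is below this distance.

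In the share of regions covered, the libraries parted more on the downstream shoulder than at the start. The contrast with Ctrl is partly set by the choice of regions for their length in Ctrl, and was not tested. At 1500 bp downstream, 82.9% and 79.7% of the 187 regions were covered in the Ctrl libraries, 56.7% and 68.4% with SR2, and 31.0% and 58.8% with THC. At the start itself the shares were 98.9% and 97.9% for Ctrl, 93.6% and 96.8% for SR2, and 78.6% and 93.6% for THC. The Ctrl shares at the start were thus close to their ceiling. The pattern was not particular to the broadest regions. In the next 500, the regions with a single start had shares at 1500 bp of 46.03% and 40.21% for Ctrl. These were 26.98% and 32.8% for SR2, and 12.7% and 23.28% for THC. The strongest summit lay a median of 162 to 225 bp downstream of the start in each of the 6 libraries. These are medians, and the summit of a single region could move between libraries.

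Regions made of several peaks were more frequent in the treated libraries. Regions made of more than 1 peak numbered 18 and 61 of 500 for Ctrl, 119 and 84 for SR2, and 198 and 128 for THC. In the next 500 they numbered 10 and 42 for Ctrl, 43 and 41 for SR2, and 70 and 43 for THC, so SR2 was within the range of Ctrl or 1 region above it there. The regions were chosen on covered length in Ctrl, which a gap between peaks lowers, so the Ctrl counts are not independent of the choice. Measured from the outer edge of the first peak to that of the last, the median length was 2499.5 and 2422 bp in Ctrl, 2239.5 and 2348.5 bp in SR2 and 1785 and 2219 bp in THC. The outer edges too were thus closer together in the treated libraries. The regions with the most peaks summed over the libraries were Brd2/H2-DMa, Kcnn4, a calcium-activated potassium channel, Jag2, a Notch ligand, Srebf1, the regulator of sterol and fatty acid synthesis, and Vegfa. Brd2/H2-DMa was 1 peak in Ctrl replicate 1 and 4 peaks in SR2 replicate 1.

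Breadth and peak strength did not follow the same order. Within the list of Ctrl replicate 1, the strongest peak of each of the 500 regions had a median percentile of 67.6 by the authors' −log10 q, against 74.5 for the next 500 regions and 67.5 for the middle regions. In Ctrl replicate 2 the 3 values were 64.7, 71.6 and 63.9. By this median rank the broadest regions were close to the much shorter middle regions at their summit in Ctrl. Fewer of the broadest lay below the median of the list, at 50 and 94 in Ctrl against 98 and 148 middle regions. In THC the medians were 58.3 and 59.2 for the broadest, 63.6 and 67.5 for the next 500, and 52.0 and 54.2 for middle regions.

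Which genes lie at the broadest regions was read from lists of gene symbols, beside all protein-coding genes marked in both Ctrl libraries, of which 534 of 11820 (4.52%) lay at one of the 500. The shares are a description with no test, and the lists were drawn up with earlier results of these data known. AP-1 and immediate early genes, the first to respond to growth factors and stress, had the highest share, with 11 of 20. Myc had 3464 and 3247 bp in Ctrl, 2788 and 3263 bp in SR2, and 1624 and 2764 bp in THC. Klf4, a zinc finger factor, had 3028 and 2837 bp, 2495 and 2788 bp, and 2018 and 2792 bp. Fosb had 2973 and 2808 bp, 2647 and 2949 bp, and 1440 and 2852 bp, and Fosl2, another AP-1 subunit, had 2952 and 2760 bp, 2176 and 2741 bp, and 2012 and 2398 bp. In all 4 THC replicate 2 was within or close to the range of SR2, and THC replicate 1 was the lowest library. The other 7 were Junb, Egr1, Ier3, Jun, Nfkbia, Jund and Klf6, and at Nfkbia, the inhibitor of NF-kappaB, both THC libraries (1071 and 1032 bp) were below both SR2 libraries (1745 and 2518 bp).

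**Figure D4:**
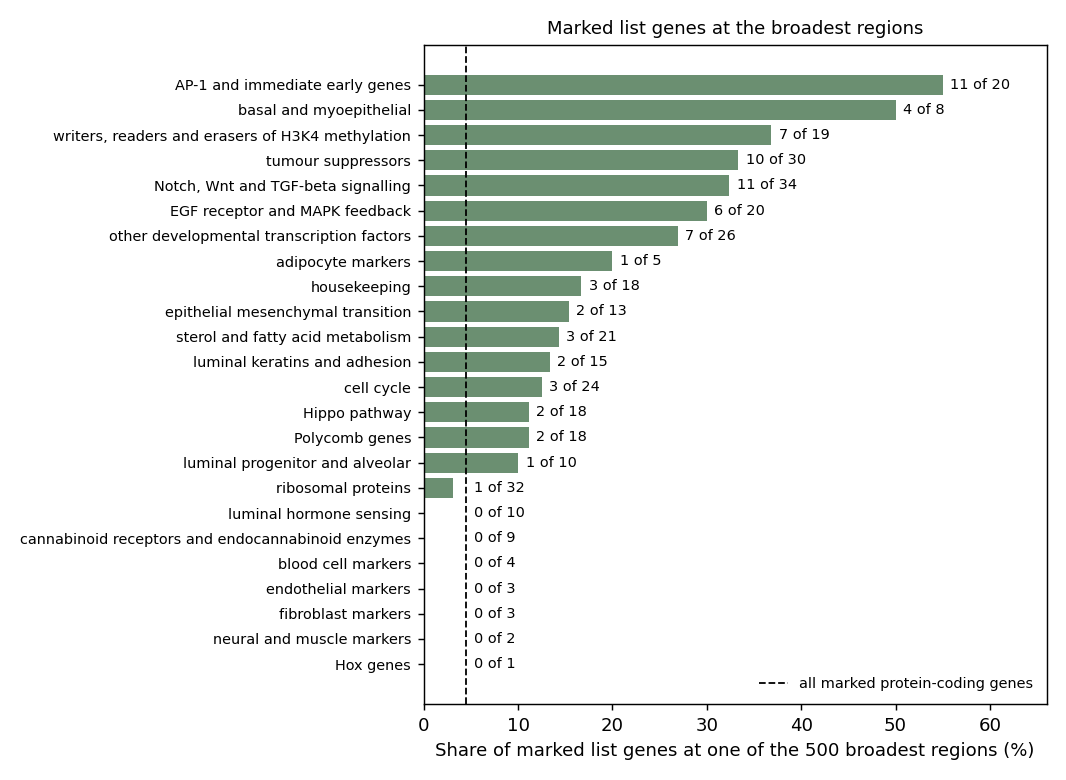
Share of list genes that lie at one of the 500 broadest regions (horizontal axis, %), out of the list's genes with a region marked in both Ctrl libraries; the numbers beside the bars are those counts, and the dashed line is the share over all marked protein-coding genes, 4.52%. AP-1 and immediate early genes reach 11 of 20, while cannabinoid and luminal hormone-sensing genes are at 0 of 9 and 0 of 10.

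Chromatin genes were frequent. Of 19 writers, readers and erasers of H3K4 methylation, 7 lay at one of the regions: the readers Ing1 and Ing2, the methyltransferases Kmt2d, Kmt2c, Kmt2a and Setd1b, and the demethylase Kdm5a. Kmt2d had 3074 and 3015 bp in Ctrl, 2650 and 2960 bp in SR2 and 1691 and 2775 bp in THC. Ing2 had 2597 and 2529 bp, 2506 and 2552 bp, and 2389 and 2618 bp, with overlapping groups throughout. Of 18 Polycomb genes, which include its antagonists, 2 were at the regions, and both encode H3K27 demethylases. Kdm6b had 2672 and 2894 bp in Ctrl, 1161 and 1828 bp in SR2 and 679 and 1297 bp in THC, while Kdm6a had 2643 and 2597 bp, 2623 and 2535 bp, and 1898 and 2079 bp. By name, 6 of 10 marked Arid genes, 6 of 15 Klf genes and 7 of 16 ephrin and ephrin receptor genes lay at the regions, families looked up after the regions were known. Other families looked up had 2 of 3 (Irf2bp), 2 of 6 (Tle), 8 of 25 (Kdm or Kmt), 3 of 12 (Sox) and 6 of 25 (Fox). Sema or Plxn names had 4 of 20 and Etv 1 of 5. The lowest shares were those of Dusp (2 of 19), Rpl or Rps names (6 of 87) and the Zfp group with Zbtb genes (11 of 384, 2.86%).

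Tumour suppressor genes, the class known for broad domains in other tissues, had 10 of 30. Arid1a, a subunit of the SWI/SNF remodeller, had 2872 and 2877 bp in Ctrl, 2813 and 2877 bp in SR2 and 2727 and 2868 bp in THC. Stk11, the kinase LKB1, had 2534 and 2760 bp in Ctrl, 1000 and 1300 bp in SR2 and 815 and 1431 bp in THC. Arid1a and Stk11 thus differ within 1 class, the one with treated libraries close to Ctrl and the other with all 4 of them far below it.

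Notch, Wnt and TGF-beta signalling had 11 of 34, among them ligands (Jag1, Jag2 and Tgfb1), receptors (Fzd7), feedback inhibitors (Axin2) and transcription factors (Smad3 and Tcf7l2). Jag1, a Notch ligand (chr2:137113614-137117535), had 3591 and 3324 bp in Ctrl, 2950 and 3876 bp in SR2 and 1617 and 2316 bp in THC. Fzd7, a Wnt receptor, had 3126 and 2819 bp, 2433 and 2763 bp, and 1589 and 3188 bp. Jag1 was lower in both THC libraries than in any other library, while at Fzd7 the THC libraries were the lowest and the highest of the 6. Tgfb1 and Jag2 had mean Ctrl lengths of 2814.5 and 2496 bp. The EGF receptor and MAPK list had 6 of 20, led by Dusp4, the receptor gene Erbb3 and the inhibitors Spry2 and Spred1. Erbb3 had 2942 and 2489 bp in Ctrl, 1969 and 2248 bp in SR2 and 1203 and 1716 bp in THC, with no overlap between any 2 groups.

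Among lineage genes, 4 of 8 marked basal and myoepithelial genes lay at the regions. Krt14, the basal keratin (chr11:100205158-100207792), had 2418 and 2263 bp in Ctrl, 1572 and 2300 bp in SR2, no peak in THC replicate 1 and 1245 bp in THC replicate 2. Egr2 had 2966 and 2494 bp, 2503 and 2397 bp, and 388 and 1582 bp, and Itgb4, the hemidesmosomal integrin, had 2379 and 2303 bp, 2101 and 2209 bp, and 1241 and 2332 bp. The fourth, Lgals7, a galectin of stratified epithelia, had 2268 bp in both Ctrl libraries, 1207 and 2161 bp in SR2 and 596 and 1381 bp in THC. At all 4 THC replicate 1 was the lowest library. At Krt14, Egr2 and Lgals7, but not at Itgb4, THC replicate 2 was also below both Ctrl libraries. That order is the usual one: it held in 86.6% of the 500 regions and 84.3% of regions marked in all 6 libraries. Krt5, the partner of Krt14, ranked 893 and read 1763 and 2103 bp, 1015 and 1694 bp, and 0 and 1040 bp. The luminal lists had fewer regions: Esrp1 and Grhl2 of 15 keratin and adhesion genes, Nfib of 10 luminal progenitor genes and 0 of 10 hormone-sensing genes. Krt8, the luminal keratin, ranked 2103 with 1628 and 1629 bp in Ctrl, 1547 and 1587 bp in SR2 and 1489 and 1490 bp in THC. Its partner Krt18 ranked 3158 with 1646 and 1276 bp, 1417 and 857 bp, and 0 and 854 bp, and Krt19 ranked 2368 with 1485 and 1679 bp, 1088 and 1358 bp, and 0 and 1429 bp. Krt18 and Krt19, like Krt14 and Krt5, thus had no peak in THC replicate 1. Gata3, the luminal transcription factor, ranked 10303 with 460 to 818 bp over the 6 libraries.

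Developmental transcription factors had 7 of 26, led by Sox4, Sox9, Foxp1 and Foxc1, with mean Ctrl lengths of 3122, 2738.5, 2622 and 2578 bp. Sox9, a factor of mammary progenitors, had 2686 and 2927 bp in SR2 and 2378 and 2559 bp in THC. Sterol and fatty acid genes had 3 of 21, Sqle, Fasn and Srebf1, of which Sqle, the squalene epoxidase, had 2720 and 2469 bp in Ctrl, 1050 and 1189 bp in SR2 and 942 and 1130 bp in THC. Fasn, the fatty acid synthase, had 2543 and 2375 bp, 1724 and 1930 bp, and 1742 and 1936 bp. Both enzymes were shorter in each of the 4 treated libraries than in either Ctrl library. The cell cycle list had 3 of 24 (Cdk6, E2f3 and Ccnd1), the housekeeping list 3 of 18 (Actg1, Gapdh and Ubb), the epithelial mesenchymal transition list 2 of 13 (Mmp14 and Tgfbr2), the Hippo list 2 of 18 (Amotl1 and Ajuba), adipocyte markers 1 of 5 (Cebpa, also a factor of epithelia) and ribosomal proteins 1 of 32 (Rpl7). Cannabinoid receptors and endocannabinoid enzymes had 0 of 9, Hox genes 0 of 1, and fibroblast, endothelial, blood cell and neural or muscle markers 0 of 3, 3, 4 and 2. Cnr1, the cannabinoid receptor gene of the brain, ranked 9106.

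Treatment differences were first described as ratios of mean covered length to Ctrl, without a test. The median ratio over the 500 regions was 0.914 for SR2 (0.873 in batch 1 and 0.961 in batch 2, as ratios of library medians) and 0.726 for THC (0.596 and 0.886). Over the regions with a peak in all 6 libraries the medians were 0.910 and 0.752. That set keeps only regions still marked in THC. The lowest SR2 ratios were those of Sqle (0.431), Stk11 (0.434), Kdm6b (0.537), Pkp3 (0.540), a desmosomal plakophilin, and Lrrc24/Arhgap39 (0.541). The highest were those of Pgf (1.09), the placental growth factor, Trib2 (1.08), Meis1 (1.07), Maz (1.06) and Cited2 (1.05). In all 5, at least 1 SR2 library was inside or below the range of Ctrl.

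The lowest THC ratios were those of Zhx2 (0.213), Pou3f1 (0.219), Oaf (0.220), Zc3h12a (0.254), the RNase Regnase-1, and Krt14 (0.266). Zhx2, a transcriptional repressor, had 2274 and 2836 bp in Ctrl, 704 and 2098 bp in SR2, no peak in THC replicate 1 and 1086 bp in THC replicate 2. Pou3f1, a POU-domain factor, had 2899 and 2675 bp, 1285 and 1748 bp, no peak, and 1221 bp. Zc3h12a had 3501 and 2554 bp, 1399 and 2040 bp, and 636 and 904 bp. In these 3 both THC libraries were below both SR2 and both Ctrl libraries, except that at Zhx2 SR2 replicate 1 was below THC replicate 2. Of the 500 regions, 5 (Pou3f1, Pcdh7, Zhx2, Krt14 and Oaf) lacked a peak in any treated library, in each case THC replicate 1. That library held a peak in 495 of the 500 regions, 488 of the next 500 and 450 of the middle 500.

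At the other end were Gnb2, Klf10, Rab37/Slc9a3r1 and Rn18s-rs5, each with a THC ratio of 1.01, and Sp3 with 0.997. Gnb2, a G-protein beta subunit, had 2873 and 2903 bp in Ctrl, 2754 and 2816 bp in SR2 and 2917 and 2937 bp in THC, so THC replicate 1 was as long as the Ctrl libraries there. In the same way 19 of the 500 regions kept at least 90% of their mean Ctrl length in all 4 treated libraries, a count not made for other regions. Beside Gnb2 and Rn18s-rs5 they included Arid1a, Foxo1, Ing2, Irf2, Klf13, Sp3, Btg1 and Cltc. Foxo1, a forkhead factor, had 2823 and 2893 bp, 2867 and 2943 bp, and 2746 and 2730 bp. THC replicate 1 was thus not short at every broad domain.

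The one comparison of breadth that the choice of regions did not use is THC against SR2. It was tested with limma on log2(covered bp + 200) over 15771 regions, after centring the libraries on their median over regions marked in all 6. Of the 500 regions, 0 passed an adjusted p of 0.05 (Benjamini-Hochberg, limma) in either direction, where 0% of all tested regions passed in each direction. At an unadjusted p under 0.05, 33 regions (6.6%) were narrower in THC, beside 6.84% of all tested regions, and 8 (1.6%) were wider, beside 1.84%. Both THC libraries were below both SR2 libraries in 243 regions (48.6%), beside 40.6% of all regions, and above them in 2 (0.4%), beside 0.64%. The first share was 49.6% in the next 500, 50% in the middle 500 and 50.3% over regions marked in all 6 libraries, so it was close to that of other well-marked regions. The median log2 difference was −0.05 over the 500 and −0.03 over all tested regions. The counts at this p were thus close to the background. Uncentred, the median ratio of THC to SR2 was 0.811 over the 500 (0.682 in batch 1 and 0.923 in batch 2) and 0.838 over regions marked in all 6 libraries. Without THC replicate 1 the median over the 500 was 0.05, and with THC replicate 1 as the only THC library, assumed to vary like the others, 69 of the 500 (13.8%) were narrower beside 7.01% of all tested regions, and 0 were wider beside 0.588%.

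The smallest p-values narrower in THC were those of Tcirg1, Adamts1, Tet3, Wnt5a and Tgfbr2. Tcirg1, a subunit of the vacuolar proton pump (chr19:3905069-3907516), had 2307 and 2274 bp in Ctrl, 2339 and 2277 bp in SR2, and 1009 and 1138 bp in THC. Its Ctrl and SR2 libraries overlapped, and both THC libraries were far below them. Its centred log2 difference was −0.74 (SE 0.10) with an adjusted p of 0.318 (limma, Benjamini-Hochberg). The SE values given here pool the spread of all 6 libraries, including Ctrl, whose replicates differed least. With only the 4 SR2 and THC libraries, the SE at Tcirg1 was 0.11 and its adjusted p 0.746 (limma, Benjamini-Hochberg). Adamts1, an extracellular protease, had 2487 and 2420 bp, 1896 and 2395 bp, and 850 and 1198 bp. Tet3, which oxidises methylated cytosine, had 2210 and 2196 bp, 2046 and 2326 bp, and 1130 and 1400 bp. These too had both THC libraries below the other 4, with log2 differences of −0.71 (SE 0.10) and −0.47 (SE 0.08). Wnt5a, a non-canonical Wnt ligand, had 2301 and 2288 bp, 2132 and 2094 bp, and 1003 and 1405 bp, and Tgfbr2, the type II TGF-beta receptor, had 2060 and 2339 bp, 1941 and 1891 bp, and 831 and 1167 bp. Their differences were −0.50 (SE 0.09) and −0.59 (SE 0.11). Without centring the largest of the 5 was −0.98 at Tcirg1 and the smallest −0.71 at Tet3. Adamts1, Tet3, Wnt5a and Tgfbr2 shared the adjusted p of 0.318 (limma, Benjamini-Hochberg).

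**Figure D5:**
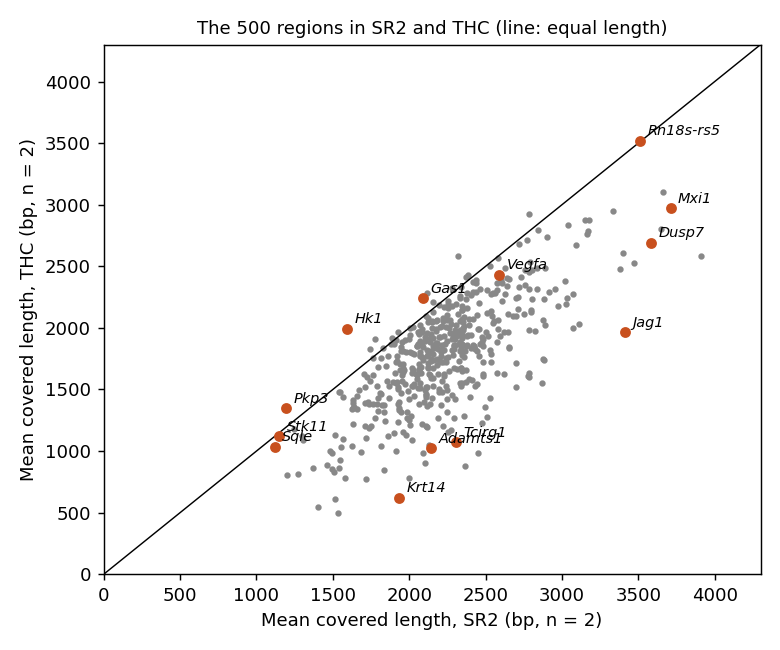
Mean covered length in bp of each of the 500 regions in SR2 (horizontal axis) and THC (vertical axis), 2 libraries each; the line marks equal length and orange points are named regions. Most points lie below the line before centring, with Tcirg1, Adamts1 and Jag1 well below it and Hk1 and Pkp3 above it.

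In the other direction the smallest p-values were those of Pkp3, Hk1, Gas1, Klf10 and Gt(ROSA)26Sor. Pkp3 had 2220 and 2199 bp in Ctrl, 1107 and 1279 bp in SR2 and 1162 and 1532 bp in THC, a log2 difference of 0.38 (SE 0.08) with an adjusted p of 0.318 (limma, Benjamini-Hochberg). Hk1, a hexokinase, had 2448 and 2008 bp, 1562 and 1625 bp, and 1605 and 2383 bp, a difference of 0.51 (SE 0.12) with an adjusted p of 0.331 (limma, Benjamini-Hochberg). In both, THC replicate 1 fell inside the range of SR2, and the difference is relative to a centring that raised the THC libraries. Gas1, Klf10 and Gt(ROSA)26Sor, the Rosa26 locus, had differences of 0.33, 0.38 and 0.33. Without centring the 5 differences were smaller, at 0.14 for Pkp3, 0.27 for Hk1, 0.09 for Gas1, 0.14 for Klf10 and 0.09 for Gt(ROSA)26Sor.

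The order of breadth was compared through lists of equal size. Of the 500 regions, 388 (77.6%) were among the 500 broadest of SR2 and 302 (60.4%) among those of THC, 281 were in both and 91 in neither. The 2 Ctrl libraries taken singly shared 400 of their 500 broadest, the SR2 pair 377 and the THC pair 267. THC replicate 1 shared 207 to 267 with each of the other 5 libraries, and all remaining pairs shared 330 to 400. Between single Ctrl and THC libraries, the numbers shared were 207 and 229 with THC replicate 1 and 346 and 361 with THC replicate 2. In all 6 libraries taken singly, 161 of the regions were among the 500 broadest. Replicates also differed at single regions: the Ctrl replicates differed most at Rab11fip5 (2808 and 1614 bp), Ptprg (3271 and 2118 bp), Bhlhe41 (3478 and 2345 bp), Pcdh1 (3202 and 2188 bp) and Adrb1 (2902 and 1952 bp). The median difference between replicates was 105 bp for Ctrl, 211.5 bp for SR2 and 588.5 bp for THC.

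Peaks of H3K27me3, which the choice did not use, overlapped a minority of the regions, though a larger share than of all other regions. The shares are not matched for region length, and a longer region is more easily overlapped. A peak of this mark overlapped 45 of the 500 (9.0%) in at least 1 library, against 13.6% of the next 500 regions, 8.0% of the middle regions and 5.45% of all other regions. By library the counts were 28 and 1 for Ctrl, 22 and 1 for SR2 and 7 and 1 for THC, and the H3K27me3 lists themselves held 2708 and 386, 839 and 157, and 983 and 70 peaks. The counts thus followed the replicate, and only 10 regions were overlapped in 2 or more libraries. Beside Rn18s-rs5, with 6, the X-linked Kdm6a (chrX:18161786-18164442) was overlapped in 3, over 714 bp in Ctrl replicate 1, 1042 bp in SR2 replicate 1 and 348 bp in THC replicate 1. Overlap in 2 libraries was found at Hmga2, Eif5a, Igf2bp2, Ube2d3, Ing2, Atp6v1a/Naa50, Rbm15 and Ggps1/Arid4b. Most of these peaks were weak by the authors' −log10 q. Among the regions overlapped in 2 libraries, only Hmga2 (2.43) and Igf2bp2 (2.56) had a peak of at least 2, both in Ctrl replicate 1. At Kdm6a the values were 1.17, 2.09 and 1.31 in the order above. These peaks were called in bulk, so the same allele or cell need not carry both marks.

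Not every broad region was at a listed start. By the rule used, 21 of the 500 were given no gene, and 19 of these lay inside or over a gene. The end of a gene that has a listed start elsewhere was not used by the rule, and such an end lay within 1 kb in 4 of the 21, at Adgrl2, Spaca6, Tnk2 and Utrn. The broadest, ranked 18, lies inside Kdm6b at chr11:69408483-69411930, 5603 bp from the Kdm6b region ranked 89. It was covered over 3217 and 3448 bp in Ctrl, 3074 and 3248 bp in SR2 and 2406 and 3113 bp in THC. It kept far more of its length than its neighbour, which read 1161 and 1828 bp in SR2 and 679 and 1297 bp in THC. The next lay at Adgrl2, Nectin1, Tfap2c and Trim11, ranked 23, 50, 83 and 86. Another pair of neighbours was Cdkn1b, the cell cycle inhibitor p27, and the noncoding Lockd, 4875 bp apart. As a share of regions with a peak in both Ctrl libraries, the 500 were most frequent on chromosomes 10 (4.99%), 17 (4.77%) and 15 (4.57%) and least on chromosomes 2 (1.83%) and X (2.03%).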

How the data were processed

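The 12 CUT&Tag libraries, 6 for each mark, came from 500000 cells each and were sequenced in pairs of 150 bp, per the labels' protocols, which disagree on the enzymes used for dissociation. Per the submitters' processing notes, the build was mm10 and the tools included MACS3, bedtools, deepTools, Picard, SAMtools 1.8, Bowtie2 2.5.4 and cutadapt 5.2, with no roles given. The authors deposited 1 peak list per library, called per sample, with a score, a fold enrichment over background (a ratio within 1 library), a −log10 p and a −log10 q for each peak. These values, made by the authors, served to rank peaks within a list and to recover the summit pileup, which came out whole in at least 96.5% of peaks of each H3K4me3 list. Read totals are not in these lists, so the depth is otherwise unknown.

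Peaks were merged where they overlapped, and covered bp were summed per library. Genes came from RefSeq tables of GRCm38.p6: a gene was given to a region when its start lay within 1 kb, or either gene end where no start was listed. Exon and intron structure was not analysed here. Breadth in THC and SR2 was compared with limma 3.58.1 (R 4.3.3, trend), fitting log2(covered bp + 200) of the 6 libraries together over regions marked in at least 2, with Benjamini-Hochberg adjustment. On simulated data of 10140 regions it called 70 of 100 regions changed by 1 and 95 of 100 changed by 2 on the log2 scale, with 13 false calls. The real test covered 15771 regions, among them regions with no peak in some libraries. At the broadest regions the median replicate difference was 105 bp for Ctrl, 211.5 bp for SR2 and 588.5 bp for THC. The simulated rates need not hold at this uneven spread. The lack of calls for THC against SR2 thus does not show that such changes were absent. Summit pileups of replicates gave a chi-square per degree of freedom of 0.873 (Ctrl), 0.983 (SR2) and 0.825 (THC), against 0.747 to 1.37 between groups. The lowest value was that of SR2 replicate 1 with THC replicate 1, so this measure cannot tell technical from separate replicates. No pair was merged, and n = 2.

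The replicate number is the batch number in the labels, which pairs the samples. Deviations of same-numbered samples correlated at −0.0620, 0.0344 and 0.0477 over 15771 regions. The regions and gene lists were chosen with earlier results of these data known. Named regions are the 10 broadest, those at the limit of 500, up to 4 of each gene list, and the extremes of each ratio, test or overlap. The alternatives tried were other pseudocounts, centrings, filters, choices and numbers of regions, a replicate block, and leaving out each replicate.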

Additional observations from a re-analysis of the deposited data

How the results depend on the processing

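The 10 genes named for THC against SR2 had the smallest p-values of the 500 regions in each direction, so a kept direction was largely set in advance. The replicate block and leaving out a Ctrl replicate gave the same estimates as the main fit. So did keeping regions marked in at least 1 library. None of 13 alternatives reversed the direction of these differences, and 126 of 130 values kept their side of the threshold. The q filter, the equal peak number and the 1 kb merging were not run for single genes. Tcirg1, Adamts1, Tet3 and Wnt5a passed it without THC replicate 2, at adjusted p-values (limma, Benjamini-Hochberg) of 0.0317, 0.0330, 0.0472 and 0.0410, and over all alternatives their adjusted p ranged up to 0.805. With the replicate block, which pairs the samples by batch, 0 of the 500 regions were called. The median log2 difference stayed −0.05, which this block cannot change because each group has both batches. Leaving out 1 replicate at a time gave 0 to 69 regions called and a median of −0.12 to 0.05 (0.054 without THC replicate 1), and without centring the median was −0.29, beside −0.27 for all regions. The median covered length in Ctrl replicate 1 was 2732.5 bp for 250 regions, 2209 bp for 1000, 2385.5 bp chosen on SR2, 2279.5 bp chosen on THC and 2573 bp with peaks up to 1 kb apart merged. In Ctrl replicate 2 it was 2653 bp for 250 regions, 2120 bp for 1000, 2221 bp chosen on THC and 2467 bp merged. In SR2 replicate 1 it was 2359.5 bp for 250, 1908.5 bp for 1000, 2076.5 bp by the longest single peak and 2065 bp chosen on THC. In SR2 replicate 2 it was 2503 bp for 250, 2026.5 bp for 1000 and 2184 bp chosen on THC. The share among the broadest of SR2 was 72.2% by the longest single peak, 72.6% for regions chosen on Ctrl replicate 1 and 66.2% chosen on THC, and the share for THC was 66% for 1000 regions, 50% by the longest peak and 66.2% chosen on SR2. H3K27me3 overlap fell to 4.8% with at least 500 bp of overlap and to 2.0% with a −log10 q of at least 2, and 90% of regions held a gene start or end inside. Choices of other regions move these values by construction, and for the others the cause was not tested.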
